A study of Mus musculus with 48 samples.

Results

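Gene expression in the liver was compared with that in the gut of mice whose intestinal microbes came from donors on normal chow (NC), using 16 of the 48 expression arrays of the study. The arrays were chosen by their labels alone: 8 liver and 8 gut arrays of NC recipients, with 4 arrays per tissue at zeitgeber time ZT12 and 4 at ZT0, 12 h and 0 h after lights on in a 12 h light and 12 h dark cycle. Per the labels the mice were male C57BL/6J, the recipients ate a normal diet, and no genetic change is named. The gut sample is labelled "Gut (DI)", and the letters are not spelled out, so no gut segment is named here. The protocol text also mentions germ-free males and antibiotic treatment without saying to which arrays they apply, and no age is stated beyond that the mice were age-matched. The other 32 arrays, from recipients of microbes of donors on a high-fat diet (HF) or a ketogenic diet (KD), served only for a comparison at the end. RNA of whole tissue was measured, so fewer cells of a type and less RNA per cell cannot be told apart in any difference given below.

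The liver and the gut are joined by the portal vein and by bile. Hepatocytes secrete most plasma proteins, clear amino acid nitrogen as urea, store and release glucose, detoxify absorbed compounds and make bile acids. The intestinal lining is renewed from dividing crypt cells and holds absorptive enterocytes with a brush border of digestive enzymes and transporters, goblet cells that secrete mucus, Paneth cells that secrete antimicrobial proteins, and hormone cells. Bile acids link both organs: the liver makes and secretes them, and the lower small intestine takes them back through a dedicated set of carriers.

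Levels are given as log2(intensity + 16), quantile normalised over the 16 arrays, with 1 transcript cluster per gene for 20702 genes. Because quantile normalisation gives all arrays the same distribution, each difference is relative to the other genes of the array. A difference is liver minus gut on this log2 scale from a linear model with time as a covariate, its ± is the standard error (n = 8 arrays per tissue), and a gene is called higher or lower in liver when limma's Benjamini-Hochberg adjusted p was under 0.05. The files hold no detection calls, so the 95th percentile of the 1405 clusters named as olfactory or vomeronasal receptors in the deposited tables, genes of sensory neurons in the nose, stood for the background level of each array. It lay between 6.90 and 7.03 in liver arrays and between 6.82 and 6.93 in gut arrays. This level is set for a whole array, so a value above it does not show that a cluster reads only its own gene. A gene was termed liver-restricted when its difference was at least 3, every liver array was above background and every gut array was not. Gut-restricted genes met the mirror of that rule. For such a gene the fold is given as a lower bound against the background level of the dim tissue.

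Of the 20702 genes, 9277 (44.8%) were higher in liver and 6353 (30.7%) were lower. The call was therefore the usual outcome, and the size of a difference carries more than the call. A difference of at least 8-fold was found for 447 genes higher and 333 genes lower in liver. The rules left 218 liver-restricted genes (1.05%) and 182 gut-restricted genes (0.879%). The split of the calls depended on scaling: 59.4% of the called genes were higher in liver after quantile normalisation, 61.1% after centring each array on its median and 21% without normalisation, where the median difference of all genes moved to -0.277 from 0.097. Median intensity was 88.18 to 97.71 units in liver arrays and 125.7 to 132.8 units in gut arrays. Across genes, arrays of 1 tissue correlated at 0.98 to 0.994 in liver and 0.977 to 0.993 in gut, and arrays of different tissues at 0.71 to 0.753. No 2 arrays held the same values.

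The promoters of leading restricted genes are shown first, because the leading genes of each tissue are those in which a reader would look for binding letters of tissue factors. Each is 300 bases from RefSeq on GRCm38.p6, reaching from upstream of the gene start to just after it, on the strand of the gene. Capitals mark a match, on either strand, to 1 of 5 searched motifs. The letters searched for HNF1 factors were GTTAATNAT. Those for HNF4 factors were TGNACTTTG or, as the other strand reads, CAAAGTNCA. For the intestinal CDX factors the motif was TTTATNG. The motif of the zinc finger GATA family was GATAAG. For C/EBP factors of liver and fat it was TTGCNNAA.

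From liver-restricted genes these are Uox (chr3:146596899-146597198, plus strand), Sult2a8 (chr7:14446538-14446837, minus strand), Saa4 (chr7:46732554-46732853, minus strand) and Slco1b2 (chr6:141629268-141629567, plus strand), and from gut-restricted genes Krt20 (chr11:99438104-99438403, minus strand), Mep1a (chr17:43502724-43503023, minus strand) and Guca2a (chr4:119637482-119637781, plus strand).
Uox: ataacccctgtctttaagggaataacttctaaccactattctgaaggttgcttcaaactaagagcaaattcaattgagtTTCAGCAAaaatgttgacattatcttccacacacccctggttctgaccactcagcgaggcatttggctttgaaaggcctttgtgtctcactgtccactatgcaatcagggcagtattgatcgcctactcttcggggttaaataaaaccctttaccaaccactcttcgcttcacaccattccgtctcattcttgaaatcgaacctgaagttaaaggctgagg
Sult2a8: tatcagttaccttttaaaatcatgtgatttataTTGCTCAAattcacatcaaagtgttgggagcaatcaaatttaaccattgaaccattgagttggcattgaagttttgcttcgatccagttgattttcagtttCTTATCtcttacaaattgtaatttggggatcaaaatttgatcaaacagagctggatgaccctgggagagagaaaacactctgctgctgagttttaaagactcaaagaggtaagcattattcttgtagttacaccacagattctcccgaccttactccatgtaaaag
Saa4: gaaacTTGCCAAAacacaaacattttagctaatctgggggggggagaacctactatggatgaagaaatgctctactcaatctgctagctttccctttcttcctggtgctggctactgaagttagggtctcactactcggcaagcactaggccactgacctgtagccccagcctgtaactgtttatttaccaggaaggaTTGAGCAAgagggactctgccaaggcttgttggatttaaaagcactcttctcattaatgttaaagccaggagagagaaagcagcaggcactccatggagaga
Slco1b2: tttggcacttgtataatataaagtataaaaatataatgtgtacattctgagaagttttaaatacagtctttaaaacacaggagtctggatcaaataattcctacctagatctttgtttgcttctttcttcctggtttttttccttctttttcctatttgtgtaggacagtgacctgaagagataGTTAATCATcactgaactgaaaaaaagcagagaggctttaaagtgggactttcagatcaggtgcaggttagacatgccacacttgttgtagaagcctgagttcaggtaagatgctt
Krt20: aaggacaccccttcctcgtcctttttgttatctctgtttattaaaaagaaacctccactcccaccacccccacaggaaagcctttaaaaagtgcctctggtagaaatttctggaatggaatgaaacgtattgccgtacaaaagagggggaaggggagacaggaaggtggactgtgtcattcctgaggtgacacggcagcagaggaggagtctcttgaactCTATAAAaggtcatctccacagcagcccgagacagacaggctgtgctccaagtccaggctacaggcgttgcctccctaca
Mep1a: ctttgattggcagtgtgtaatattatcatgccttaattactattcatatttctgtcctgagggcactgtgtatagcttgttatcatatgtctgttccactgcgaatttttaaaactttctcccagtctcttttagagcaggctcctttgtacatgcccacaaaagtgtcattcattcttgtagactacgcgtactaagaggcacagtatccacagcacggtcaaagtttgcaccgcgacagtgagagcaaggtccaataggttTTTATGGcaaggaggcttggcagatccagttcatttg
Guca2a: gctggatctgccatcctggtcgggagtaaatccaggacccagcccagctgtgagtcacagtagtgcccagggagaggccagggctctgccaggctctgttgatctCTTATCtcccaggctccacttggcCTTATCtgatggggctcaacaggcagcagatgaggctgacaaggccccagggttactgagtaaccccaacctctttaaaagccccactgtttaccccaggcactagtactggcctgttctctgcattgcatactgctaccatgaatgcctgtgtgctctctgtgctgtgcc

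Uox held 1 C/EBP match, Sult2a8 held 1 C/EBP and 1 GATA match, Saa4 held 2 C/EBP matches and Slco1b2 held 1 HNF1 match. Krt20 and Mep1a each held 1 CDX match, and Guca2a held 2 GATA matches. The CDX match of Krt20 includes the letters TATAAA, which are also those of a TATA box. The promoters of Tdo2, Ugt3a1, Cyp1a2 and B4galnt2, equally restricted, held none of these letters.

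A promoter was available for 165 of the 218 liver-restricted genes, 128 of the 182 gut-restricted genes and 15877 of all measured genes. HNF1 letters, bound by a factor of hepatocytes and other epithelia, stood in 9.09% of liver-restricted, 2.34% of gut-restricted and 0.724% of all promoters. C/EBP letters, bound by leucine zipper factors of liver and fat, stood in 22.4% of liver-restricted promoters, 9.38% of gut-restricted promoters and 9.86% of all promoters. CDX letters, bound by homeodomain factors of the intestine, stood in 10.9% of liver-restricted, 20.3% of gut-restricted and 9.57% of all promoters. HNF4 letters were in 7.88% of liver-restricted, 5.47% of gut-restricted and 1.35% of all promoters, and GATA letters in 9.7%, 8.59% and 6.46% of the same sets in that order. The shares are descriptions without a test, and a match is not a binding site.

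**Figure D1:**
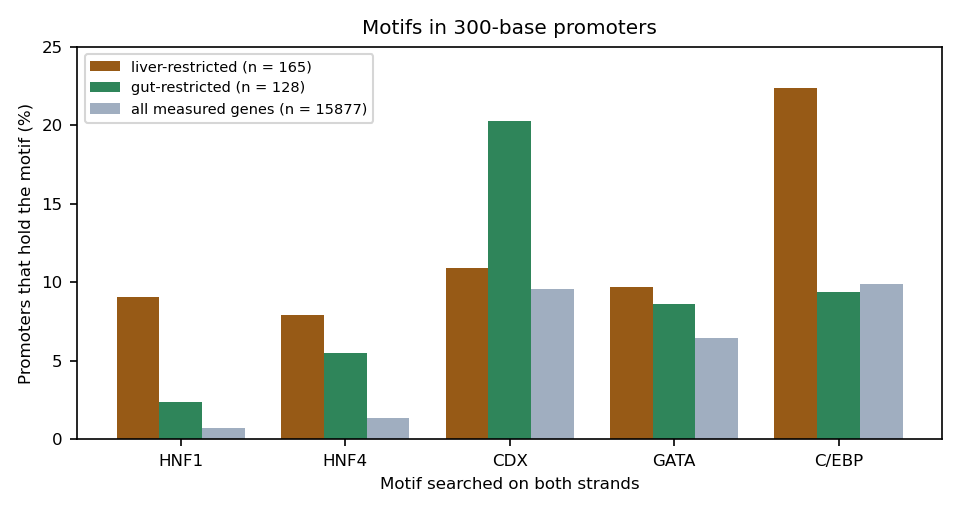
Share of 300-base promoters (vertical axis, percent) that hold each searched motif on either strand, for liver-restricted genes (brown, n = 165), gut-restricted genes (green, n = 128) and all measured genes (grey, n = 15877). HNF1 and C/EBP letters are at 9.09% and 22.4% in liver-restricted promoters, and CDX letters at 20.3% in gut-restricted promoters.

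Before the results, 3 arrays have to be named because they held the highest levels of genes of the other tissue. In the liver arrays of ZT0 replicates 5 and 6, Reg3b, an antimicrobial lectin of the gut lining, stood at 12.04 and 11, against at most 6.36 in the other 6 liver arrays and 13.12 to 13.81 in gut. The mean of 15 Paneth cell and antimicrobial genes was 8.03 and 7.45 in those arrays, against 6.54 to 6.71 in the other liver arrays and 11.03 to 11.67 in gut. Sis, the brush border enzyme sucrase-isomaltase, stood there at 8.31 and 7.13, against at most 5.63 in the other liver arrays. In the gut array of ZT0 replicate 1, albumin (Alb) stood at 11.68, against 6.16 to 9.20 in the other gut arrays and 13.78 to 13.95 in liver, and the mean of 54 plasma protein genes was 7.34, against 6.62 to 6.87 in the other gut arrays. Of 14 goblet cell genes, 7 and 5 were above background in those liver arrays, against 1 in each of the other 6, and of 15 Paneth cell and antimicrobial genes 11 and 9, against 4 to 7. Of the plasma protein genes, 29 were above background in that gut array, against 13 to 23 in the others. The liver signal in gut was graded and not confined to that array. Alb was also above background in gut ZT0 replicates 3, 4 and 6 (9.20, 7.90 and 7.76) and ZT12 replicate 9 (8.69). Values given without the 3 arrays therefore still include gut arrays with liver genes. Not every defining gene was raised: Mep1a, a brush border protease, did not exceed 5.56 in any liver array.

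The part of these arrays in the results was not tested, but the counts of called and restricted genes were repeated without them, a choice made after the data were seen. Promoter shares, gene families and the share of restricted genes that differed by time were not repeated. Without the 3 arrays, 9121 genes were higher and 6142 lower in liver, 227 were liver-restricted (214 of them among the 218) and 223 were gut-restricted (all 182 among them). A single array kept a gene off a restricted list most often in liver ZT0 replicate 5 (16 genes) and gut ZT0 replicate 1 (13 genes), and 0 to 3 times in every other array.

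**Figure D2:**
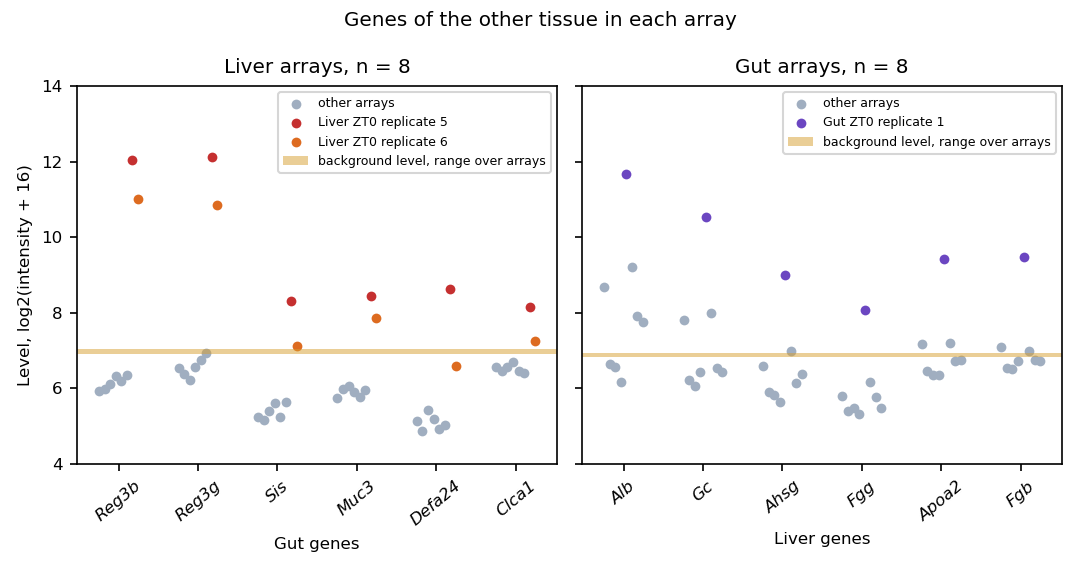
Level of 6 gut genes in the 8 liver arrays (left) and of 6 liver genes in the 8 gut arrays (right), as log2(intensity + 16), with 1 point per array and the range of the background level as a band. Reg3b in liver ZT0 replicates 5 and 6 (12.04 and 11) and Alb in gut ZT0 replicate 1 (11.68) stand above the other arrays of their tissue.

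The liver-restricted gene with the highest measured log2 difference was Uox, urate oxidase, which breaks down uric acid. As gut values at background give only a lower bound, this order is of measured differences, not of bounds. Its level lay between 12.40 and 12.64 in liver (median 12.55) and between 4.88 and 5.57 in gut (median 5.12). The groups were far apart in every array, with a difference of 7.38 ± 0.079 (adjusted p = 6.8e-23), at least 50.3-fold higher. Tdo2, the enzyme that opens the tryptophan ring for breakdown, lay between 12.01 and 12.31 in liver (median 12.26) and between 4.70 and 5.59 in gut (median 4.94). Its difference was 7.29 ± 0.10, at least 41.1-fold higher. Sult2a8, a sulfotransferase of bile acids in mouse liver, lay between 12.06 and 12.38 in liver (median 12.21) and between 4.67 and 5.65 in gut (median 4.92). Every gut array was below background for these genes, and liver levels varied little among the liver arrays.

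The next 7 were of like size. Cyp4a12b and Cyp4a12a, hydroxylases of fatty acids, differed by 7.22 ± 0.097 and 6.94 ± 0.084. They are near-identical copies whose probes can read each other's transcript, so their values are not independent. Saa4, a constitutive serum amyloid of lipoproteins, differed by 7.13 ± 0.10, and the glycosyltransferases Ugt3a2 and Ugt3a1 by 7.03 ± 0.095 and 7.02 ± 0.075. Cyp1a2, an oxidase of drugs and caffeine, differed by 6.93 ± 0.13 and Slco1b2, an uptake carrier of bile acids and drugs, by 6.91 ± 0.069. All 10 had 8 of 8 liver arrays above and 0 of 8 gut arrays above background.

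Among gut-restricted genes the lowest measured log2 difference was that of Krt20, a keratin of mature intestinal cells. Its level lay between 5.27 and 6.66 in liver (median 5.48) and between 12.46 and 12.97 in gut (median 12.89). The difference was -7.19 ± 0.15 (adjusted p = 1.4e-18), at least 59.3-fold lower in liver. The highest liver value was that of ZT0 replicate 5, and it was still below background. Without the 3 named arrays the difference was -7.41 ± 0.074.

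Surface proteins of the brush border stood among the other leading gut genes. Naaladl1, a peptidase of the small intestine, lay between 5.34 and 6.35 in liver (median 5.62) and between 12.72 and 13.09 in gut (median 12.86), a difference of -7.15 ± 0.12, and its bound of at least 61.7-fold lower in liver is above that of Krt20. The meprin subunits Mep1a and Mep1b, surface metalloproteases, differed by -6.91 ± 0.066 and -6.12 ± 0.093, and Cdh17, an adhesion protein of the intestinal lining, by -6.43 ± 0.091. The sulfate carrier Slc13a1 differed by -6.30 ± 0.16, the protease inhibitor Serpinb1a by -6.28 ± 0.15, the glycosyltransferase B4galnt2 by -6.14 ± 0.067 and Guca2a, the precursor of the hormone guanylin, by -6.11 ± 0.12. Each was above background in all 8 gut arrays and in no liver array.

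**Figure D3:**
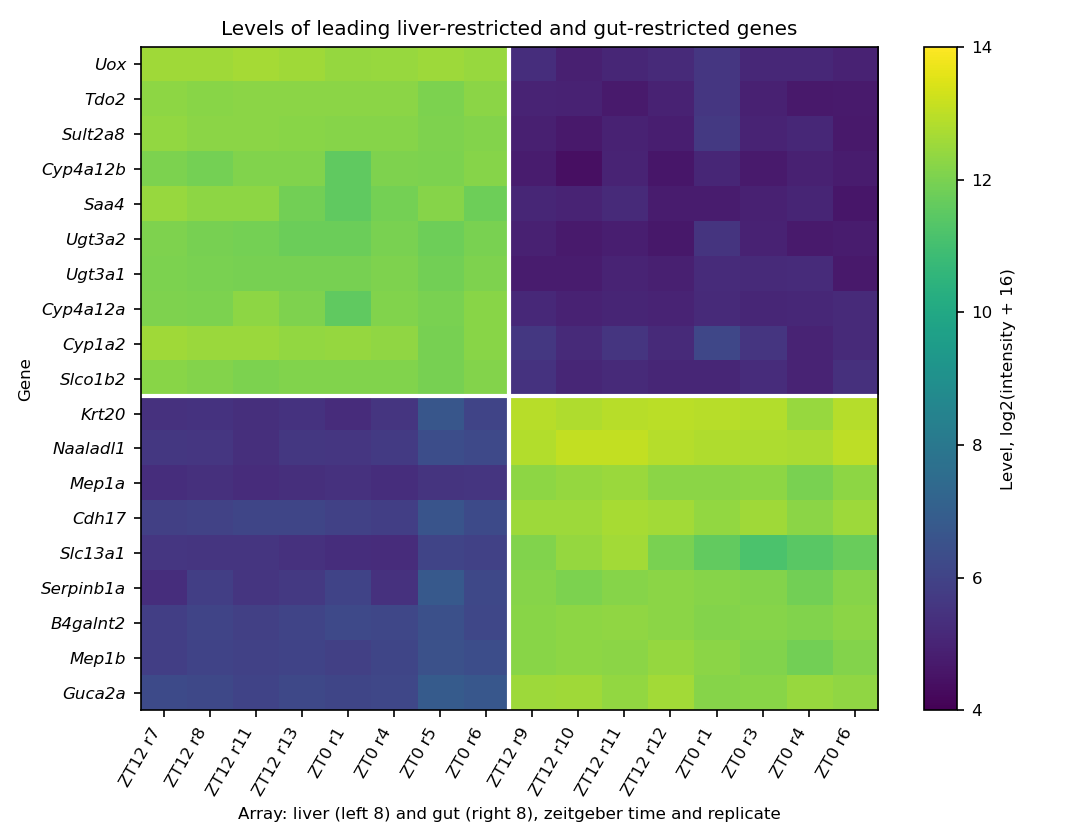
Level of the 10 liver-restricted genes with the highest and 9 of the 10 gut-restricted genes with the lowest difference (rows) in each of the 16 arrays (columns; liver left, gut right, ZT12 before ZT0 in each tissue), coloured by log2(intensity + 16). Liver genes stand above 11.5 in all liver arrays and gut genes above 11 in all gut arrays, and Krt20 reaches 6.66 in liver ZT0 replicate 5.

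The 218 liver-restricted genes had a median liver level of 10.79 (8.28 to 12.84) and a median lower bound of 15.2-fold (2.64 to 62.4). The 182 gut-restricted genes had a median gut level of 10.32 (8.47 to 12.90) and a median lower bound of 10.3-fold (2.86 to 61.7). These values follow from the rule and are a description. Just inside the limit of 3 stood Stab2 at 3.003 and Pfkfb1 at 3.02, and just outside it Abca8b at 2.997 and Rnf144b at 2.97. On the gut side Fos at -3.01 and H2ac4 at -3.01 were inside and Sprr2b at -2.998 and Trim40 at -2.98 outside. Restriction was less common than a large difference: of the 447 genes at least 8-fold higher in liver, 112 were also above background in all 8 gut arrays and 117 in 1 to 7 of them. Of 332 genes at least 8-fold lower and above background in all gut arrays, 59 were above background in all liver arrays and 91 in 1 to 7.

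The secreted products of hepatocytes were the group furthest to the liver side. All 54 listed plasma protein genes were higher in liver (background 44.8%), with a median difference of 5.54 against 0.097 for all genes, and 22 of them were liver-restricted. Fgg, a chain of the clotting protein fibrinogen, lay between 12.78 and 13.13 in liver (median 12.98) and between 5.31 and 8.07 in gut (median 5.63). Ahsg, the plasma protein fetuin A, lay between 13.45 and 13.65 in liver (median 13.58) and between 5.64 and 8.99 in gut (median 6.26). The highest gut value of both was that of ZT0 replicate 1. Their differences were 7.02 ± 0.25 and 7.02 ± 0.32, and 7.28 ± 0.097 and 7.38 ± 0.17 without the 3 named arrays.

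Alb, the main carrier protein of plasma, lay between 13.78 and 13.95 in liver (median 13.81) and between 6.16 and 11.68 in gut (median 7.83). The gut arrays were widely spread and the groups did not overlap, with a difference of 5.75 ± 0.50, and 6.31 ± 0.36 without the 3 arrays. Among proteins restricted to liver were Fga, another fibrinogen chain (6.77 ± 0.065), Plg, the precursor of the clot-dissolving enzyme plasmin (6.70 ± 0.080, at least 60.1-fold), Itih4, an acute phase protein (6.45 ± 0.065, at least 62.4-fold), and the complement components C8b (6.50 ± 0.097) and Hc (6.49 ± 0.078). Among the 3 smallest differences were those of the complement genes Cfb (2.24 ± 0.046) and C3 (3.28 ± 0.18), whose gut levels of 9.95 to 10.13 and 8.88 to 10.60 were all above background.

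Genes of amino acid breakdown and the urea cycle were higher in liver in 35 of 43 cases and lower in 7 (background 44.8% and 30.7%), with a median of 4.26. Hgd and Fah, of the tyrosine pathway, were liver-restricted, with differences of 6.19 ± 0.061 and 5.95 ± 0.062. Ass1, which joins citrulline and aspartate in the urea cycle, lay between 12.76 and 13 in liver (median 12.83) and between 6.86 and 7.78 in gut (median 7.27). The opening steps of the cycle differed far less: Cps1, which fixes ammonia, lay between 12.81 and 12.98 in liver (median 12.88) and between 10.78 and 11.63 in gut (median 11.13), a difference of 1.74 ± 0.089, and Otc, which makes citrulline, differed by 1.38 ± 0.063. Both were bright in the gut, at 10.78 or above for Cps1 and 10.62 or above for Otc in every gut array.

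Of the 7 genes that went against the group, several handle arginine, ornithine and proline. The arginases divided by tissue: Arg1, the enzyme of the urea cycle, was higher in liver (4.37 ± 0.089), and Arg2, the mitochondrial form, was gut-restricted (-3.42 ± 0.14, at least 9.48-fold lower in liver). Aldh18a1, for proline synthesis, differed by -2.33 ± 0.11, Asns, asparagine synthetase, by -1.37 ± 0.17, and Ido1, the extrahepatic tryptophan-breaking enzyme, by -1.45 ± 0.14. Mat2a, the general methionine activating enzyme, and Oat, of ornithine, were lower by little (-0.39 ± 0.095 and -0.26 ± 0.096), and the call of Oat was lost with mouse as a fixed block. Bcat2, of branched-chain amino acids, had 0.023 ± 0.058 (adjusted p = 0.73), and -0.38 without normalisation.

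All 11 genes of bile acid synthesis were higher in liver (44.8% of all genes were), with a median of 3.9. Cyp7a1, the rate-limiting enzyme, lay between 9.16 and 11.81 in liver (median 10.44) and between 5.09 and 5.51 in gut (median 5.18), a difference of 5.26 ± 0.26, and its liver values were 11.81, 11.77, 11.05 and 11.22 at ZT12 and 9.69, 9.16, 9.82 and 9.47 at ZT0. The times did not overlap in liver, and all 8 gut arrays were at background. Cyp8b1, which sets the ratio of cholic acid, differed by 4.79 ± 0.099, Cyp7b1 of the acidic pathway by 4.99 ± 0.12 and Slc27a5, which activates bile acids for conjugation, by 5.40 ± 0.050. Cyp39a1 had the smallest difference of the group, 1.41 ± 0.10.

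Of 18 genes of bile acid transport and signalling, 12 were higher and 5 lower in liver (all genes 44.8% and 30.7%), the second near the share of all genes. Not every carrier was of 1 organ: Abcc2 had means of 11.74 (ZT0) and 11.96 (ZT12) in liver and 9.84 and 11.09 in gut. Slc10a1, the sodium-linked uptake carrier of hepatocytes, lay between 12.57 and 12.93 in liver (median 12.76) and between 5.85 and 6.86 in gut (median 6.28), and Abcb11, the export pump into bile, differed by 6.20 ± 0.13. Fabp6, the bile acid binding protein of the lower small intestine, lay between 6.43 and 7.54 in liver (median 6.59) and between 12.72 and 13.43 in gut (median 13.24). The difference was -6.49 ± 0.13, and -6.64 ± 0.092 without the 3 arrays. The exporters Slc51a and Slc51b, which pass bile acids from enterocytes to portal blood, differed by -5.62 ± 0.12 and -5.66 ± 0.13.

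Slc10a2, the ileal uptake carrier, lay between 8.20 and 9.64 in liver (median 8.99) and between 10.41 and 12.24 in gut (median 11.63), a difference of -2.46 ± 0.26. Fgf15, the gut hormone that restrains bile acid synthesis in the liver, lay between 8.80 and 9.26 in liver (median 9.09) and between 8.85 and 11.77 in gut (median 10.53), a difference of -1.42 ± 0.25, and the groups overlapped. Its receptor partner Klb was liver-restricted (3.04 ± 0.069). Nr1h4, the bile acid receptor, was bright in both tissues and differed by 0.40 ± 0.087, or 0.070 without normalisation (adjusted p = 0.44), and Gpbar1, the membrane receptor, had 0.073 ± 0.073 (adjusted p = 0.37), and -0.33 without normalisation.

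Of 30 genes of lipoproteins and sterols, 19 were higher and 7 lower in liver, against 44.8% and 30.7% of all genes. Apoa2, an HDL protein, lay between 13.62 and 13.74 in liver (median 13.72) and between 6.34 and 9.41 in gut (median 6.74), a difference of 6.66 ± 0.30, and 6.98 ± 0.13 without the 3 arrays. The structural proteins that both organs use to export fat were close in level, with Apob called slightly higher in liver and Apoa1 not called. Apoa1 was among the brightest genes in both tissues, and whether its signal was saturated was not tested. Apoa1 lay between 13.44 and 13.71 in liver (median 13.62) and between 13.35 and 13.65 in gut (median 13.56) and Apob between 12.86 and 13.09 in liver (median 12.99) and between 12.19 and 12.97 in gut (median 12.74), with overlapping groups and differences of 0.061 ± 0.053 (adjusted p = 0.3) and 0.27 ± 0.083 (adjusted p = 0.0069).

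Apoa4, made when fat is absorbed, had 0.29 ± 0.21 and did not pass, and Mttp, which loads lipid onto Apob, was lower in liver by a small amount (-0.48 ± 0.078). Genes of fat and sterol absorption stood on the gut side. Npc1l1, the cholesterol uptake protein, differed by -5.73 ± 0.083, at least 39-fold lower in liver, Mogat2, of triglyceride rebuilding, by -4.03 ± 0.085 and Dgat1, its last step, by -3.34 ± 0.070. The isoform Dgat2 went the other way (1.55 ± 0.077).

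Of 26 genes of glucose and fructose metabolism, 20 were higher and 4 lower in liver (all genes 44.8% and 30.7%). G6pc, which releases free glucose, lay between 12.34 and 12.87 in liver (median 12.66) and between 5.86 and 8.97 in gut (median 7.74), a difference of 4.94 ± 0.34, and its lowest gut values were 5.98 and 5.86 in ZT12 replicates 10 and 11. Fbp1 and Pck1, the other control steps of glucose production, differed by 4.84 ± 0.19 and 4.40 ± 0.21. The general hexokinases Hk2 and Hk1 differed by -2.04 ± 0.16 and -0.96 ± 0.045. Pkm, the pyruvate kinase of dividing tissues, differed by -2.05 ± 0.064 and Pklr, that of liver, by 1.495 ± 0.056.

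Of 19 genes of ketone and fatty acid oxidation, 17 were higher and 2 lower in liver (all genes 44.8% and 30.7%). Oxct1, which lets tissues burn ketones, was lower: it lay between 6.68 and 7.24 in liver (median 6.93) and between 9.66 and 10.32 in gut (median 9.82), a difference of -2.93 ± 0.10. The other lower gene was the carnitine carrier Slc22a5 (-1.70 ± 0.12). The mitochondrial oxidation enzymes differed modestly, from 0.48 ± 0.054 for Hadha to 1.79 ± 0.10 for Cpt1a.

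Of 44 drug-metabolising genes 28 were higher and 14 lower in liver, against 44.8% and 30.7% of all genes, so the count lower was about the background share. Cyp2e1, an oxidase of ethanol, lay between 13 and 13.36 in liver (median 13.26) and between 6.19 and 8.83 in gut (median 7.85) and Cyp3a11, the main drug oxidase of mouse liver, between 11.31 and 12.06 in liver (median 11.68) and between 5.98 and 8.74 in gut (median 7.29). Their differences were 5.41 ± 0.25 and 4.42 ± 0.32. The gut had members of its own: Abcb1a, the drug efflux pump, differed by -4.59 ± 0.19, Sult2b1, a sterol sulfotransferase, by -4.55 ± 0.070 and Cyp2c65 by -3.29 ± 0.14.

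Iron genes were found on both sides. Hamp, hepcidin, the liver hormone that blocks iron release, lay between 11.54 and 13.09 in liver (median 12.88) and between 5.95 and 7.48 in gut (median 6.29), a difference of 6.22 ± 0.22, and Tfr2, its upstream sensor, was liver-restricted (5.34 ± 0.054). Hamp has a near-identical copy, Hamp2, whose transcript its probes may also read. Heph, the ferroxidase through which enterocytes export iron, was gut-restricted (-4.29 ± 0.072). The iron uptake carrier Slc11a2 differed by only -0.25 ± 0.098, the reductase Cybrd1 was at background in both tissues, and the iron exporter Slc40a1 was higher in liver (1.30 ± 0.24). Of the 15 genes, 10 were higher and 5 lower in liver, the second near the 30.7% of all genes.

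On the gut side, 29 of 30 brush border genes were lower in liver (background 30.7%), with a median of -4.13, and 11 were gut-restricted. Sis lay between 5.17 and 8.31 in liver (median 5.51) and between 12.78 and 13.38 in gut (median 13.19), a difference of -7.18 ± 0.35, and -7.78 ± 0.10 without the 3 arrays. Alpi, intestinal alkaline phosphatase, differed by -5.63 ± 0.088, and Vil1, the actin bundler villin, by -5.69 ± 0.086. Several peptidases that hepatocytes also carry on the bile canaliculus were bright in both: Anpep lay between 11.15 and 11.45 in liver (median 11.27) and between 13.50 and 13.81 in gut (median 13.76), a difference of -2.44 ± 0.046, and Dpp4 differed by -1.88 ± 0.086. Lct, lactase, lay between 5.87 and 6.30 in liver (median 6.09) and between 6.21 and 11.06 in gut (median 9.19). The spread came from ZT12 replicates 10 and 11, at 6.72 and 6.21, against 8.73 or above in the other 6 gut arrays. Tmprss15, which activates trypsin in the upper small intestine, was at background in all 16 arrays.

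Of 32 measured genes of nutrient absorption, 23 were lower and 6 higher in liver (all genes 30.7% and 44.8%). Slc5a1, the sodium-linked glucose carrier, lay between 6.16 and 7.04 in liver (median 6.39) and between 11.47 and 12.68 in gut (median 12.00), a difference of -5.53 ± 0.17. The peptide carrier Slc15a1 differed by -6.01 ± 0.14 and the neutral amino acid carrier Slc6a19 by -6.06 ± 0.14, both gut-restricted. Slc2a5, the fructose carrier, differed by -1.28 ± 0.22 and its groups overlapped.

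The fatty acid binding proteins separated. Fabp1, the liver form, lay between 12.46 and 12.79 in liver (median 12.63) and between 6.15 and 8.35 in gut (median 7.06), a difference of 5.43 ± 0.23. Fabp2, the intestinal form, lay between 9.63 and 10.42 in liver (median 10.08) and between 13.37 and 13.61 in gut (median 13.53), a difference of -3.45 ± 0.081. The third, Fabp6, was given above with bile acids. Fabp1 was the least stable of them among the gut arrays, at 8.13 and 8.35 in ZT0 replicates 1 and 3 and 7.37 or less in the other 6. Those replicates 1 and 3 also held the highest Alb levels of the gut arrays (11.68 and 9.20), and the link was not tested. Slc27a2, a fatty acid carrier and activating enzyme, was also higher in liver (4.59 ± 0.10), whereas Rbp2, the intestinal retinol binding protein, was gut-restricted (-4.41 ± 0.14).

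Mucus and antimicrobial genes were lower in liver in 12 of 14 and 14 of 15 cases (30.7% of all genes were). Muc2, the gel mucin of goblet cells, lay between 6.03 and 7.44 in liver (median 6.30) and between 12.96 and 13.38 in gut (median 13.19), a difference of -6.73 ± 0.14, and -6.96 ± 0.074 without the 3 arrays. Tff3, a peptide that stabilises mucus, lay between 9.15 and 10.30 in liver (median 9.63) and between 12.80 and 13.19 in gut (median 13), above background in every liver array. Lyz1, the lysozyme of Paneth cells, lay between 7.11 and 8.85 in liver (median 7.55) and between 12.90 and 13.59 in gut (median 13.44), a difference of -5.66 ± 0.17. Defa24, an alpha defensin, differed by -7.20 ± 0.38, and -7.84 ± 0.095 without the 3 arrays. The defensin genes are near-identical copies, so the split of signal among them is uncertain. Reg3b and Reg3g differed by -6.16 ± 0.72 and -5.29 ± 0.67, and by -7.46 ± 0.11 and -6.48 ± 0.18 without the 3 arrays. The Reg3g groups overlapped through liver ZT0 replicate 5.

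Hormone genes of the gut were lower in liver in 15 of 21 cases and higher in 2 (all genes 30.7% and 44.8%), with a median of -0.75. At background in both tissues were 6 of them, near the 28.7% of all genes. Nts, neurotensin, a hormone of the lower small intestine, lay between 5.93 and 6.27 in liver (median 6.05) and between 8.95 and 9.81 in gut (median 9.58) and was gut-restricted. Gcg, which encodes glucagon-like peptides in the gut, differed by -2.84 ± 0.15, Sst, somatostatin, by -1.91 ± 0.099 and Pyy, peptide YY, by -1.79 ± 0.097. Cck, cholecystokinin, had 0.018 ± 0.082 and did not pass (adjusted p = 0.85), with -0.39 without normalisation.

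Genes of epithelial junctions and keratins were lower in liver in 23 of 28 cases (30.7% of all genes were). Cldn7 and Cldn15, claudins of the gut lining, differed by -3.74 ± 0.061 and -3.24 ± 0.074. Cldn1 (3.28 ± 0.22) and the gap junction proteins Gjb1 (3.23 ± 0.060) and Gjb2 (3.14 ± 0.064) were the 3 that were higher in liver. Of 24 genes of the crypt and of cell division, 20 were lower in liver (30.7% of all genes were). Among them were Olfm4, a marker of crypt base cells (-4.79 ± 0.11), and the division genes Mki67 (-3.32 ± 0.089) and Top2a (-3.32 ± 0.078), all gut-restricted. Lgr5, the receptor that marks intestinal stem cells and also some hepatocytes, lay between 7.22 and 8.08 in liver (median 7.64) and between 7.14 and 8.17 in gut (median 7.78) and did not pass, with a difference of -0.12 ± 0.13 (adjusted p = 0.41).

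**Figure D4:**
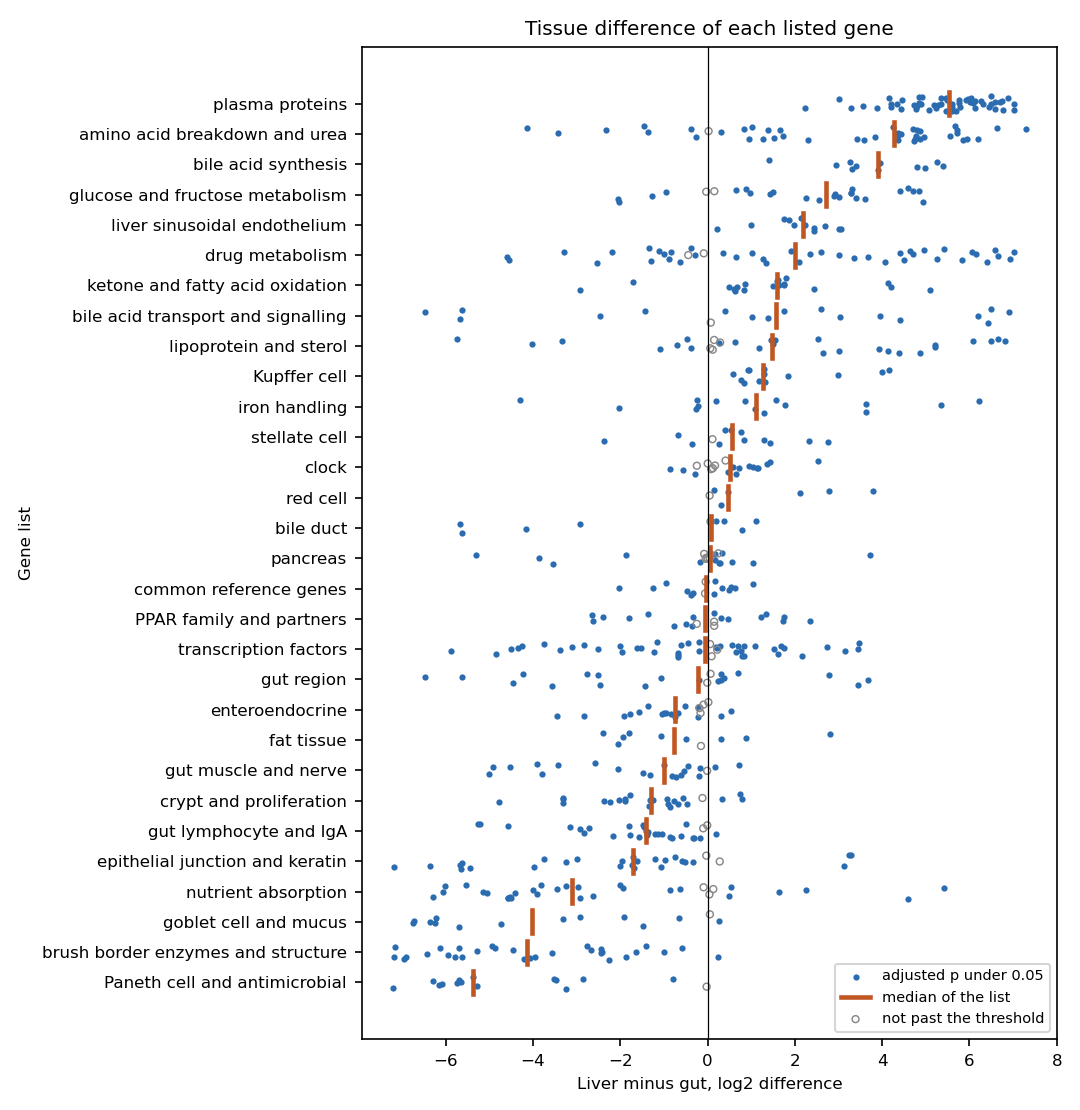
Difference of each gene of 30 lists (horizontal axis, liver minus gut, log2; filled points passed the test, open points did not) with the median of each list as a bar, lists ordered by median. Medians run from 5.54 for plasma proteins to -5.38 for Paneth cell and antimicrobial genes, against 0.097 for all genes.

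Transcription factors of both tissues were examined over 46 genes. After quantile normalisation 20 were higher and 23 lower in liver (all genes 44.8% and 30.7%), and without it 15 and 27 (all genes 16.5% and 62%). The counts of 20 and 27 are near the shares of all genes. The largest differences were gut factors. Hnf4g, an HNF4 receptor of the gut, lay between 5.37 and 6.10 in liver (median 5.602) and between 11.19 and 11.83 in gut (median 11.53), a difference of -5.88 ± 0.095. Its relative Hnf4a lay between 11.34 and 11.93 in liver (median 11.77) and between 11.43 and 11.75 in gut (median 11.59), with overlapping groups, a difference of 0.093 ± 0.070 that did not pass (adjusted p = 0.24), and -0.17 without normalisation.

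The vitamin D receptor Vdr differed by -4.84 ± 0.075, the homeodomain factor Isx, which responds to retinoids, by -4.49 ± 0.061, and the epithelial factors Elf3 and Klf5 by -4.33 ± 0.094 and -4.25 ± 0.076. Cdx2, the factor that fixes intestinal identity, was gut-restricted (-3.75 ± 0.072). Its relative Cdx1 lay between 9.82 and 10.09 in liver (median 9.96) and between 9.73 and 10.08 in gut (median 9.91), above background in all 16 arrays, with a difference of 0.058 ± 0.057 that did not pass and -0.30 without normalisation. Whether the signal of this cluster is Cdx1 transcript in either tissue was not tested, so equal expression cannot be read from it. On the liver side stood Prox1, a factor of hepatocyte growth (3.46 ± 0.060), Onecut2 (3.46 ± 0.082), Nr1i3, the receptor CAR of drug response (3.14 ± 0.16), Onecut1 (2.74 ± 0.34) and Cebpa, a factor of liver and fat (2.17 ± 0.096).

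The PPAR genes, which the title of the study names, differed by type. Ppara, the receptor of fatty acid burning, lay between 10.31 and 10.88 in liver (median 10.73) and between 8.70 and 9.09 in gut (median 8.94), a difference of 1.75 ± 0.071. Pparg, the receptor of fat storage, lay between 7.28 and 8.30 in liver (median 7.68) and between 6.88 and 7.65 in gut (median 7.13), with overlapping groups and a difference of 0.46 ± 0.11 (adjusted p = 0.0012), against 0.058 without normalisation (adjusted p = 0.64). Ppard differed by -0.76 ± 0.17, also with overlapping groups. Rxra, their partner, differed by 1.72 ± 0.096, Plin2, which coats lipid droplets, by 2.34 ± 0.071, and the coactivator Ppargc1a by -1.36 ± 0.12. Over the 20 genes of this group 8 were higher and 9 lower in liver (all genes 44.8% and 30.7%), and 5 and 11 without normalisation (all genes 16.5% and 62%). The count of 8 is near the share of all genes.

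Other cell types of each organ were traced by their markers. All 13 Kupffer cell genes, of liver macrophages, and all 12 genes of liver sinusoidal endothelium were higher in liver (44.8% of all genes were), with medians of 1.28 and 2.18. Without normalisation C1qa, of complement, did not pass in the Kupffer group (0.16), and Lyve1, an endothelial receptor, turned to -0.21 in the sinusoidal group. Vsig4, a complement receptor of Kupffer cells, and Stab2, a scavenger receptor of sinusoids, differed by 4.16 ± 0.16 and 3.003 ± 0.063. Stellate cell genes of liver were mixed: of 13, 9 were higher and 3 lower in liver (all genes 44.8% and 30.7%), with a median of 0.55. Without normalisation 6 of them were higher and 5 lower (all genes 16.5% and 62%). Neither count lower in liver is above the share of all genes. Of 21 muscle and nerve genes 18 were lower in liver (30.7% of all genes were), among them Acta2 (-4.997 ± 0.083) and Cnn1 (-4.91 ± 0.095), proteins of smooth muscle. Of 9 bile duct markers 4 were higher and 4 lower in liver (all genes 44.8% and 30.7%). Without normalisation 2 were higher and 6 lower (all genes 16.5% and 62%). The count of 4 higher and both counts without normalisation are near the shares of all genes. Krt19 and Epcam, which the gut lining shares, differed by -5.68 ± 0.077 and -5.63 ± 0.076, and Spp1 by 1.10 ± 0.12.

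Lymphocyte and immunoglobulin genes were lower in liver in 26 of 29 cases (30.7% of all genes were). Jchain, which joins IgA molecules, lay between 5.44 and 5.90 in liver (median 5.65) and between 9.65 and 10.86 in gut (median 10.31) and was gut-restricted, and Ccl25, a chemokine of the small intestine, differed by -5.25 ± 0.10. Cd79a, of the B cell receptor, lay between 5.11 and 6.01 in liver (median 5.49) and between 6.02 and 10.09 in gut (median 9.24), a difference of -3.16 ± 0.49. The gut arrays split: ZT0 replicates 4 and 6 were at 6.02 and 6.06 and the other 6 at 8.65 or above. Pigr, which carries IgA across epithelium and in mice into bile, lay between 12.08 and 12.41 in liver (median 12.23) and between 12.08 and 12.74 in gut (median 12.29) and did not pass (-0.10 ± 0.083, adjusted p = 0.28).

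Of 20 pancreas genes 8 were at background in all 16 arrays (28.7% of all genes were), including Cpb1, Cel and Try5. Spink1 (-5.30 ± 0.12), Pnliprp2 (-3.85 ± 0.23) and Clps (-3.53 ± 0.24), which parts of the gut also make, were gut-restricted, and Amy2a5, an amylase with near-identical copies, was liver-restricted (3.71 ± 0.068). Of 10 fat genes 6 were lower in liver and 3, Car3, Adipor2 and Cidea, were higher (all genes 30.7% and 44.8%). Among those lower, Adipoq, adiponectin, lay between 5.81 and 5.91 in liver (median 5.85) and between 6.02 and 9.36 in gut (median 8.59). Gut ZT0 replicate 6 was at 6.02 and the other 7 gut arrays at 7.73 or above. Genes used to scale expression were not uniformly equal: Gapdh had -0.045 ± 0.041 and did not pass (0.45 after median centring), whereas Actb differed by -0.96 ± 0.048 and Ywhaz by -1.25 ± 0.067.

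Time of day was the second factor, and the test asked whether the ZT12 minus ZT0 difference was unlike in liver and gut. It was for 782 genes (3.78%), of which 367 had a higher and 415 a lower value in liver. Within a tissue, 1970 genes differed between ZT12 and ZT0 in liver and 452 in gut. Leaving aside 2 gut arrays of ZT12 that were low in Gata4 and Lct, replicates 10 and 11, lowered the count of 782 to 423, and leaving aside the 3 arrays with genes of the other tissue, all of ZT0, lowered it to 621. Both choices were made after the data were seen. Fewer arrays also give the test less power, and the share of each drop due to that was not tested.

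Usp2, a deubiquitinating enzyme under clock control, stood at 10.17, 10.05, 10.17 and 9.92 in liver at ZT12 and at 6.28, 6.45, 6.31 and 6.52 at ZT0. In gut it stood at 9.74, 9.61, 9.46 and 9.74 at ZT12 and at 8.90, 8.33, 8.77 and 8.67 at ZT0. ZT12 was higher in both tissues, by 3.69 in liver and 0.97 in gut, a difference of 2.71 ± 0.15 (adjusted p = 1.2e-08). The other genes with more of a ZT12 excess in liver were led by Alas1, which starts haem synthesis, at 2.42 in liver and 0.098 in gut (2.32 ± 0.24), followed by Upp2, of uridine breakdown (2.27 ± 0.15), Tsku (2.22 ± 0.28), Cish, an inhibitor of cytokine signals (2.18 ± 0.27), and Nrg4, a growth factor (2.15 ± 0.22). Acot3, a thioesterase of fatty acids (2.31 ± 0.52), Hsd17b6, a steroid enzyme (2.16 ± 0.52), Mfsd2a, a lipid carrier (2.15 ± 0.55), and Onecut1, a liver factor (2.10 ± 0.47), passed with adjusted p of 0.016, 0.024, 0.034 and 0.014. Without the 2 gut arrays they had adjusted p of 0.053, 0.12, 0.14 and 0.078 in the same order, and without the 3 arrays Acot3 and Hsd17b6 had 0.13 and 0.12. Nrg4, Acot3 and Onecut1 were at background in every gut array, so no gut time difference could be read for them. Tsku was above background in 2 of 8 gut arrays and Hsd17b6 in 5, so their gut time differences are uncertain. The liver values of Usp2 at ZT0 were also under background, so the size of its liver difference is uncertain. In liver, Nrg4 was above background in 4 of 8 arrays and Acot3 in 3, so the sizes of their liver differences are uncertain too.

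Npas2, a partner of the clock activator Arntl, stood at 7.13, 6.43, 6.79 and 7.85 in liver at ZT12 and at 11.75, 12.27, 11.80 and 11.65 at ZT0. In gut it stood at 8.46, 8.08, 7.92 and 8.89 at ZT12 and at 9.94, 9.78, 9.47 and 9.83 at ZT0. ZT12 was lower in both, by more in liver (-4.82) than in gut (-1.42), a difference of -3.40 ± 0.35 (adjusted p = 1.4e-05). Averaged over both times its tissues did not differ past the threshold (0.41 ± 0.43, adjusted p = 0.4), since liver was below gut at ZT12 and above it at ZT0. Elovl3, which elongates fatty acids, had -2.46 in liver and -0.14 in gut (-2.32 ± 0.19), and Igfbp1, a binding protein of insulin-like growth factor, -2.59 and 0.089 in the same order (-2.68 ± 0.31). Both were at background in every gut array, so no gut time difference could be read for them. Cdkn1a, which halts the cell cycle, had -2.45 ± 0.32, Pdk4, which spares glucose, -2.19 ± 0.31, Chka, of phosphatidylcholine synthesis, -2.22 ± 0.23, the tubulins Tubb2a and Tubb2b, near-identical copies, -2.59 ± 0.17 and -2.06 ± 0.13, and the protease subunit Clpx -2.06 ± 0.099. Npas2, Chka and Tubb2b were above background in 6 of 8 liver arrays and Cdkn1a and Pdk4 in 4, so the sizes of their liver time differences are uncertain.

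Nr1d1, the clock repressor REV-ERB alpha, went the other way. It stood at 10.65, 10.01, 9.77 and 10.46 in liver at ZT12 and at 10.08, 9.58, 9.72 and 10.18 at ZT0, with overlapping times. In gut it stood at 10.29, 10.72, 10.41 and 10.88 at ZT12 and at 7.61, 8.32, 7.97 and 8.47 at ZT0. The ZT12 excess was 0.34 in liver and 2.48 in gut, a difference of -2.15 ± 0.29 (adjusted p = 0.00028).

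Of 20 clock genes 8 had unlike time differences (3.78% of all genes had). Arntl, the clock activator BMAL1, was lower at ZT12 by more in liver (-3.42) than in gut (-2.23), and Dbp, a direct clock output, was higher at ZT12 by more in liver (4.47) than in gut (3.42). The means of Arntl in liver at ZT12 (5.92) and of Dbp at ZT0 (6.51 in liver, 6.39 in gut) were under background, so these sizes are uncertain. The same holds for the ZT0 means of Per3 in both tissues and of Wee1 in liver. Per3 (0.76 ± 0.100), Wee1 (1.89 ± 0.14) and Clock (-0.87 ± 0.12) also passed, as did Nr1d2 (-1.05 ± 0.24, adjusted p = 0.018), which had 0.062 without the 3 arrays and 0.1 without the 2 gut arrays. Per1 had 1.44 ± 0.43 (adjusted p = 0.078) and Per2 0.23 ± 0.18 (adjusted p = 0.57), and neither passed. Cyp7a1, the bile acid enzyme, had 1.93 in liver and -0.043 in gut, where it was at background, so its difference of 1.97 ± 0.23 is that of the liver.

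Restricted genes were not all constant over the day. Of the 218 liver-restricted genes 50 (22.9%) differed between ZT12 and ZT0 in liver, against 9.52% of all genes, and of the 182 gut-restricted genes 24 (13.2%) did in gut, against 2.18% of all genes. Every restricted gene is above background in its tissue, which many of all genes are not, so the shares are not of like sets.

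**Figure D5:**
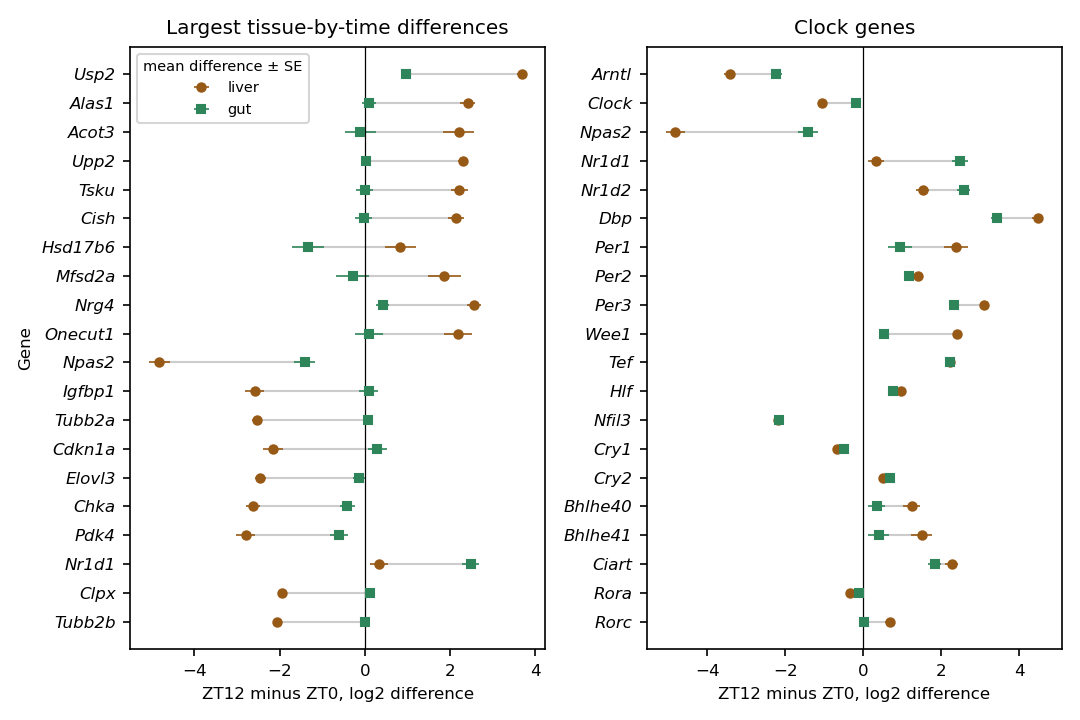
ZT12 minus ZT0 difference (horizontal axis, log2, mean ± SE, 4 arrays per tissue and time) in liver (brown circles) and gut (green squares), for the genes with the 10 highest and 10 lowest tissue-by-time differences (left) and for 20 clock genes (right). Npas2 is at -4.82 in liver and -1.42 in gut, Nr1d1 at 0.34 in liver and 2.48 in gut, and Tubb2b is near 0 in gut (0.0062). Tsku is at -0.0067 in gut, where it was above background in only 2 of 8 arrays.

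The tissue difference was then read in recipients of HF and KD donors, arrays that the rules above had not used, each set of 16 normalised on its own. In HF recipients 9221 genes (44.5%) were higher and 6280 (30.3%) lower in liver, and in KD recipients 9459 (45.7%) and 6199 (29.9%). All 218 liver-restricted and all 182 gut-restricted genes of NC recipients were called in the same direction in both. The restricted rule itself was met again in HF recipients by 205 of the 218 (94% of the NC list and 89.9% of the HF list of 228) and 175 of the 182 (96.2% and 83.3% of 210). In KD recipients it was met by 204 (93.6% of the NC list and 97.1% of the KD list of 210) and 177 (97.3% and 85.1% of 208). In all 3 sets 195 genes were liver-restricted and 171 gut-restricted.

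Tdo2, Hnf4g and Mep1a had like values in the other sets. Tdo2 had 7.15 ± 0.076 in HF and 6.89 ± 0.14 in KD recipients, against 7.29 ± 0.10 in NC recipients, and Hnf4g had -5.91 ± 0.084 and -6.05 ± 0.070, against -5.88 ± 0.095. Mep1a had -6.93 ± 0.092 and -7.04 ± 0.061, against -6.91 ± 0.066. Over all 48 arrays no gene passed the test of an unlike tissue difference between HF and NC recipients in limma (1086 genes, 5.25%, at unadjusted p under 0.05; smallest adjusted p 0.069, for Ccl5 at -1.01 ± 0.19) or between KD and NC recipients (1150 genes, 5.56%; smallest adjusted p 0.62, for Tinag at -0.45 ± 0.096). The median 95% interval of such a difference reached 0.185 to either side before any adjustment, and larger differences such as that of Ccl5 were not called either. Among these, the tissue difference of Ms4a1, a B cell surface protein, moved from NC by 2.14 ± 0.73 in HF and 1.70 ± 0.73 in KD recipients. That of Alb moved by -0.31 ± 0.53 in HF and -1.41 ± 0.53 in KD recipients. Gut genes also stood high in liver arrays of the other sets, with Reg3b at 10.52 and 10.1 in HF ZT0 replicates 4 and 5 and at 9.72 in KD ZT0 replicate 1, and Alb at 11.67 in the KD gut array of ZT0 replicate 4.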

How the data were processed

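RNA of 16 arrays (8 liver, 8 gut; 4 per tissue and time) was analysed, with 32 arrays of HF and KD recipients for comparison. Per the submitters' processing notes, the authors computed linear intensity values with PLIER, for which no version is named in these sources. The deposited value table holds 35556 transcript clusters, of which 23811 (67.0%) carry a symbol in the authors' deposited comparison tables; the intensity columns of those tables equal the value table within a relative tolerance of 1e-05, and their other columns were not used. Symbols were updated by accession (22726 clusters), symbol (688) or older symbol (108), and 289 were kept.

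From the deposited intensities, log2(intensity + 16) was quantile normalised over the 16 arrays, the cluster with the highest mean was kept per gene, and a linear model of limma 3.58.1 (R 4.3.3; moderated by eBayes, two-sided, 13 residual degrees of freedom, Benjamini-Hochberg over 20702 genes) was fitted with time as covariate; tissue by time used 4 group means. Promoters came from RefSeq. Figures used Python 3.11.15 with pandas 2.3.3 and matplotlib 3.10.9. The fit was tested on simulated data. The number of arrays limits the precision, and nothing but titles says that arrays are separate animals, so p-values may measure technical spread. Titles pair 4 of 12 mice across the tissues; deviations of same-mouse arrays correlated at 0.13, -0.062, 0.17 and 0.074.

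Named were the 10 highest or lowest restricted genes of each tissue, the 10 highest and lowest tissue-by-time differences, and leading, contrary and non-passing members of the lists; unnamed clones, predicted genes, small RNAs and receptor segments were passed over, and some genes are not reported here. Members and lists were chosen with earlier results of these data known. Ugt1a1, Slc7a7, Fcgbp, Sprr2a3 and Hbb-bs were not measured.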

Additional observations from a re-analysis of the deposited data

Results flagged for a closer look

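Among 120 list means (each list in each tissue and time, 4 arrays), 7 had an array set apart from the other 3, and among 160 groups of single named genes 8 had; chance alone gives about 1 in 20. In gut ZT0 replicate 6 the fat tissue list averaged 7.36 (other 3 arrays 8.88 to 9.18) and the PPAR list 7.58 (8.06 to 8.16). The iron list was 8.13 in gut ZT0 replicate 3 (8.35 to 8.39) and the bile duct list 8.93 in gut ZT12 replicate 12 (9.01 to 9.02). In liver, the bile acid synthesis list was 10.76 (10.68 to 10.69) and the red cell list 8.07 (8.44 to 8.48) in ZT0 replicate 6, and the sinusoidal endothelium list 9.30 (9.16 to 9.18) in ZT0 replicate 5.

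Of single genes, Tdo2 was 12.01 in liver ZT0 replicate 5 (12.25 to 12.27) and 4.71 in gut ZT12 replicate 11 (4.97 to 4.99). Cyp4a12a was 12.30 in liver ZT12 replicate 11 (12.04 to 12.08), Nrg4 was 8.68 in liver ZT12 replicate 13 (9.12 to 9.19), and Igfbp1 was 10.47 in liver ZT0 replicate 1 (11.36 to 11.51). Ugt3a1 was 4.69 in gut ZT0 replicate 6 (5.18 to 5.23), Serpinb1a 11.87 in gut ZT0 replicate 4 (12.15 to 12.20) and Onecut1 6.72 in gut ZT12 replicate 9 (6.50 to 6.52). Several of these sit at background, and their causes were not tested.

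The time difference was unlike in liver and gut, by limma's tissue-by-time test, for named genes as follows. The ZT12 minus ZT0 difference was higher in liver for Usp2 (2.71), Alas1 (2.32), Acot3 (2.31), Upp2 (2.27), Tsku (2.22), Cish (2.18), Hsd17b6 (2.16), Mfsd2a (2.15), Nrg4 (2.15), Onecut1 (2.10), Cyp7a1 (1.97), Wee1 (1.89), Dbp (1.05) and Per3 (0.76). It was lower in liver for Npas2 (-3.40), Igfbp1 (-2.67), Tubb2a (-2.59), Cdkn1a (-2.45), Elovl3 (-2.32), Chka (-2.22), Pdk4 (-2.19), Nr1d1 (-2.15), Clpx (-2.06), Tubb2b (-2.06), Arntl (-1.20), Nr1d2 (-1.05) and Clock (-0.87). Acot3, Nrg4, Onecut1, Cyp7a1, Igfbp1 and Elovl3 were at background in every gut array, where a time difference could not be read. Tsku was above background in 2 of 8 gut arrays. In liver, Usp2 and Nrg4 were above it in 4 of 8 arrays and Acot3 in 3, so these sizes are uncertain.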

How the results depend on the processing

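Without normalisation between arrays, 3407 genes were higher and 12835 lower in liver, against 9277 and 6353. Restricted counts moved less: over all settings that kept the rule, liver-restricted genes numbered 201 to 235 and gut-restricted genes 180 to 230, and leaving out each array in turn gave 215 to 230 and 180 to 199. With a limit of 2 in place of 3 on the log2 difference there were 282 and 320, and with the 99th percentile as background 299 and 259. Genes with unlike time differences numbered 423 without the 2 gut arrays low in Gata4 and Lct, and 555 to 1010 over leaving out each array. Those 2 arrays and the 3 with genes of the other tissue were left aside after the data were seen, and fewer arrays also give the test less power. With the mouse as a random replicate block, 9269 genes were higher and 6344 lower in liver, and 218 and 182 were restricted; with it as a fixed replicate block, which 4 paired mice carry, the counts were 7071 and 5209, and 219 and 190. The fixed block took the call from 18 named genes, Arntl, Clock, Cry1 and Oat among them.

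Of 10377 gene values recomputed under the alternatives, 30 changed sign where the gene passed before or after, 29 of them without normalisation: Bcat2 -0.38, Gpbar1 -0.33, Hnf4a -0.17, Nr5a2 -0.083, Cdx1 -0.30, Sox9 -0.23, Hoxb7 -0.19, Rxrb -0.25, Cidea -0.079, Tmprss15 -0.11, Slc28a1 -0.27, Trpv6 -0.31, Retnlb -0.082, St6galnac1 -0.33, Insl5 -0.075, Cck -0.39, Rrm2 -0.077, Cd8b1 -0.19, Gfap -0.20, Lyve1 -0.21, Pdgfrb -0.30, Muc1 -0.32, Epb42 -0.31, Gkn1 -0.027, Atp4a -0.16, Hoxb13 -0.065, Hoxd10 -0.31, Per2 -0.33 and Per3 -0.28. The other was Gapdh, 0.45 with median centring. Most of these lie at or near background, and differences under about 0.4 should be read with that in mind. Signal over background limits the restricted genes, whose folds are lower bounds.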

Other observations

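The gut arrays differed among themselves in genes of position and of other cell types. In gut ZT12 replicates 10 and 11, Gata4, a factor of the upper intestine, was at 6.16 and 6.71, against 7.84 to 8.65 in the other 6, and Hoxb6, a positional homeobox gene, was at 8.59 and 8.74, against 6.85 to 7.95. The same arrays held the lowest Lct values, 6.72 and 6.21. Gut ZT0 replicates 4 and 6 were low in Ms4a1, a B cell surface protein, at 5.09 and 5.37, against 8.17 to 9.58. Gut ZT0 replicate 6 was low in Cfd, a serine protease of fat, at 6.72, against 8.48 to 9.80, and in Retn, resistin, at 6.52, against 8.59 to 10.02.

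By gene family, liver-restricted and gut-restricted members numbered 20 and 1 of 95 cytochrome P450 genes, 8 and 1 of 60 serpins, 3 and 0 of 15 organic anion carriers (Slco), 6 and 0 of 11 coagulation factors, and 5 and 0 of 8 complement genes, against 1.05% and 0.879% of all genes. The single gut-restricted members of the cytochrome P450 and serpin families are near the share of all genes. Solute carriers (Slc) were the only one of these families with more gut-restricted than liver-restricted members, 15 and 19 of 375. Near-identical copies in these families can share probes.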
